A study of Homo sapiens with 21 samples.

Results

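The comparison described here is of tet-MYCshRNA BT-549 mammospheres with and without silencing of MYC, and it was made up of 6 of the 21 RNA-seq libraries of the series. BT-549 is an established triple-negative breast cancer (TNBC) cell line, and mammospheres are the spheres that such cells form in serum-free, non-adherent culture. The cells carried a lentiviral, puromycin-selected construct in which doxycycline (DOX) switches on a short hairpin RNA against MYC, and the spheres had been passaged serially 8 times. DOX at 500 ng/ml was given to 3 cultures and 0.1% DMSO, the vehicle, to 3 cultures, all of them tet-MYCshRNA cells. The time in DOX before these RNA samples were taken is not given in the sources used here. No library of a control hairpin was analysed, so an effect of DOX itself and an effect of silencing MYC cannot be told apart within this line. The only other DOX comparison is that of tet-MUC1shRNA mammospheres at passage 6, a line with the same construct and a hairpin against MUC1, and it serves below as the reference for changes that both lines share with DOX. The remaining 9 of the other 15 libraries are of 2D BT-549 cells, 3D mammospheres and 3D mammospheres given the peptide GO-203, which targets MUC1-C.

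MYC is a basic helix-loop-helix leucine zipper transcription factor that binds E-box DNA (CACGTG) as a dimer with MAX. It is best known for raising the transcription of genes for ribosome assembly, translation, nucleotide synthesis and cell-cycle entry, and for holding down cell-cycle inhibitors, matrix genes and other genes of resting cells. MXD proteins, MNT and MGA pair with the same partner and oppose MYC at shared sites, and in some tumor models MYC also dampens interferon signaling and lysosomal gene expression.

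The 3 vehicle libraries held 60288513 to 99751717 counts and the 3 DOX libraries 49301581 to 65821756. Within a group, the spread of the counts was wider than sampling alone gives. The chi-square statistic divided by its degrees of freedom was 8.48 to 21 for pairs of vehicle libraries and 19.6 to 52.8 for pairs of DOX libraries, with the highest values for the pairs that hold DOX library 1. The share of counts from mtDNA genes was 3.37% to 4.08% with vehicle and 3.96% to 5.07% with DOX. VIM, FN1, SPARC, CD44 and the other markers of this line were abundant, with summed levels of 8854 to 8952 CPM with vehicle and 14789 to 17239 CPM with DOX. CPM are read counts relative to the TMM-scaled library size, here with all 21 libraries scaled together. Markers of immune cells summed to 0.379 to 0.66 CPM with vehicle and 0.613 to 0.833 CPM with DOX. Endothelial markers summed to 6.96 to 8.23 CPM and 10.5 to 12.4 CPM, nearly all of it PECAM1, and CDH5 was at 0. Receptors and luminal genes that TNBC cells lack summed to 19.2 to 23.5 CPM and 28 to 44.5 CPM. The part of these shifts in the results below was not tested. The sources name triplicates and do not say how far the cultures were kept apart, so p-values measure the spread between these samples.

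MYC silencing was accompanied by changes in most of the genes that could be tested. Of 19951 genes, 6053 (30.3%) rose and 5612 (28.1%) fell at an adjusted p below 0.1 by edgeR's quasi-likelihood test, or 58.5% in all, and the median log2 fold change was 0.00879. A change of more than 1.5 on the log2 scale was called for 2085 genes (10.5%), of which 1408 rose (7.06% of genes tested) and 677 fell (3.39%). Falls were the more frequent among abundant genes, since 47.6% of the 1552 genes with a mean count of at least 10000 fell and 33.2% rose. Pseudogenes also fell more often than they rose, at 21.4% against 11.3% of 2440. Without DOX library 1, 33 of 34 MYC-activated genes, 61 of 64 ribosome biogenesis genes and 47 of 51 replication genes fell, and 38 of 41 interferon-stimulated and 44 of 50 lysosomal genes rose, which is near the counts given below. In bulk libraries, fewer cells of a kind and less RNA per cell cannot be told apart.

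**Figure D1:**
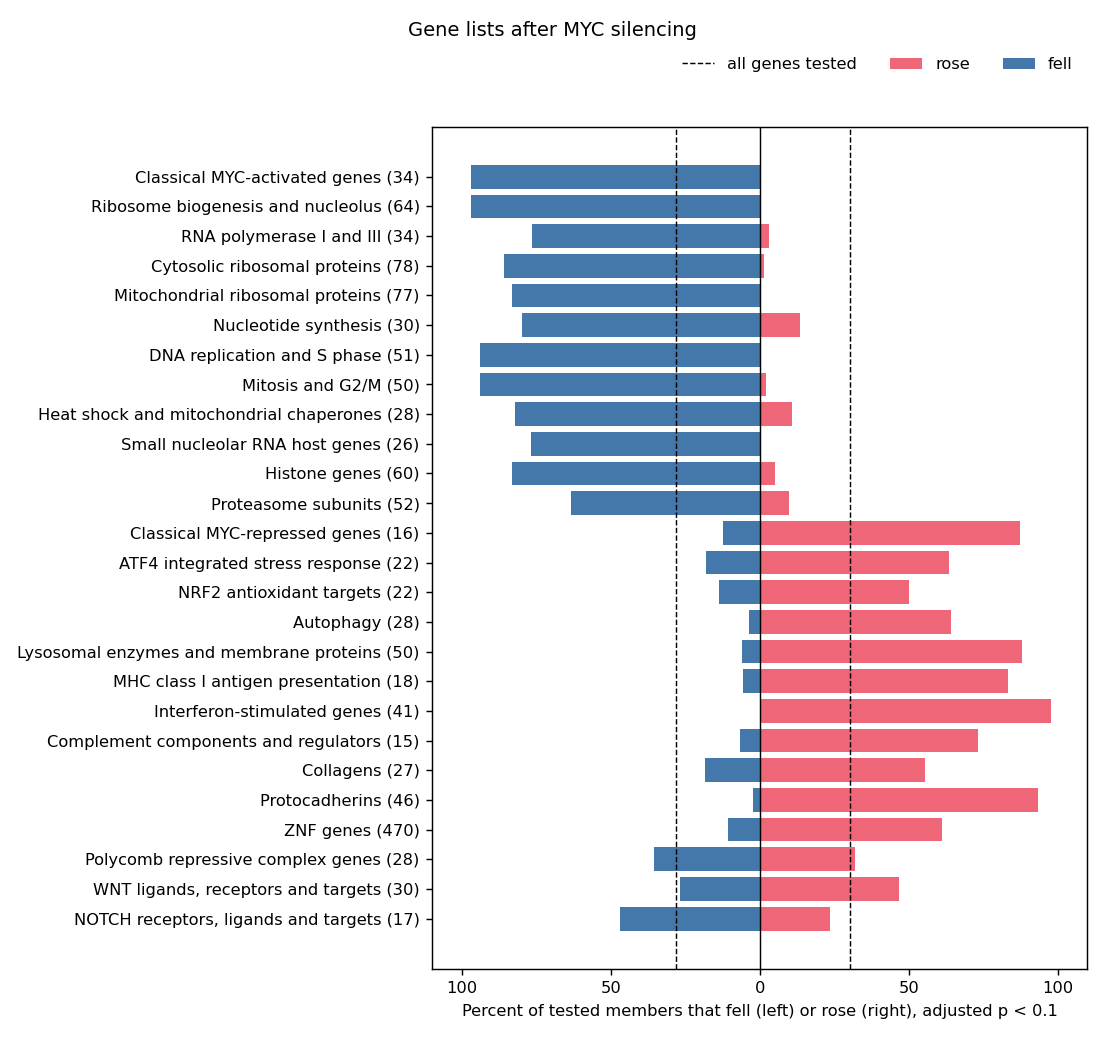
Share of the tested members of selected gene lists and families that fell (left) or rose (right) on MYC silencing at an adjusted p below 0.1, with dashed lines at the shares over all genes tested (28.1% fell, 30.3% rose). Several lists without a common direction, among them p53 targets and G1 cyclins, are not shown. Ribosome biogenesis, DNA replication and mitosis lie almost wholly on the left, and interferon-stimulated and lysosomal genes on the right.

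MYC, the targeted gene, fell. Its level was 441, 420.5 and 389 CPM in the vehicle libraries and 243, 277 and 293 CPM in the DOX libraries. All DOX libraries were below all vehicle libraries, and the log2 fold change was -0.62 (SE 0.08, adjusted p = 9.05e-05, edgeR's quasi-likelihood test), or 1.54-fold lower. In the tet-MUC1shRNA line, MYC rose with DOX by 0.25 on the log2 scale. Among the genes of the MAX dimerization network, MAX fell slightly, from 79.8 ± 1.39 to 70.2 ± 3.39 CPM (SD, n = 3), a call that was lost in the fit with a replicate block. MLX and MLXIP, which form a parallel network that senses glucose-derived metabolites, fell by 0.35 and 0.47 on the log2 scale. The antagonists MXD4 and MGA rose, MXD4 from 19.5, 17.8 and 17.1 CPM to 24.9, 39.0 and 33.9 CPM. MNT was called higher as well, by 0.38 on the log2 scale, but its groups overlapped and the call was lost without DOX library 2 or 3 or vehicle library 3, the difference then being as low as 0.27. In all, 3 of the 11 tested network genes rose and 5 fell.

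**Figure D2:**
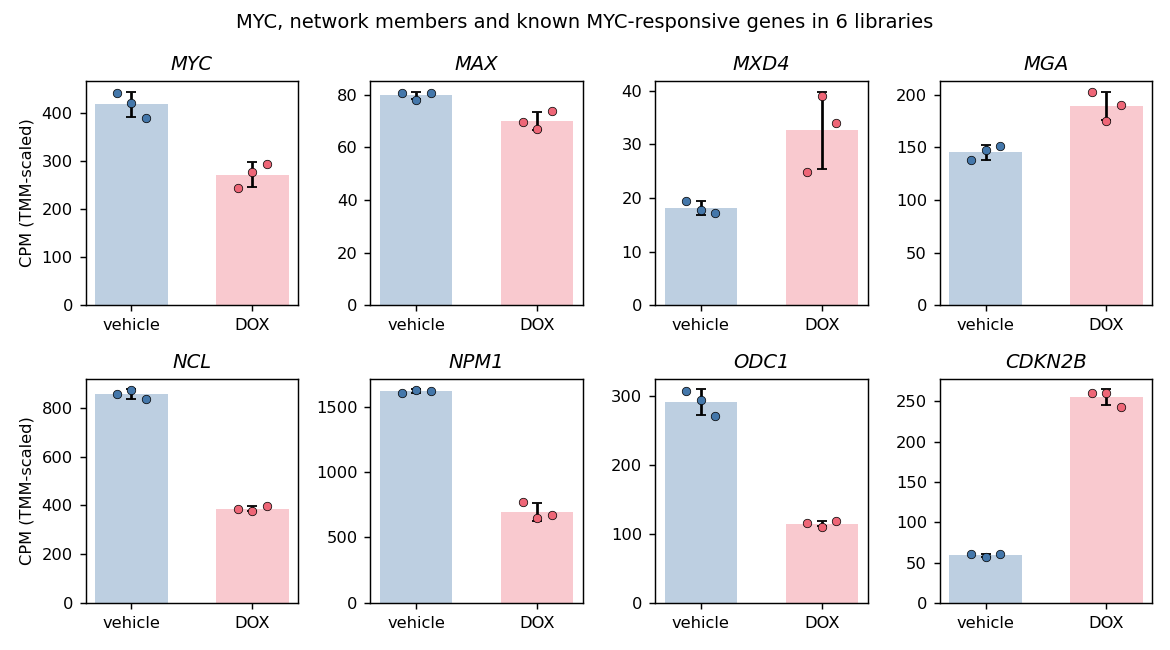
Levels (CPM, linear axes from 0) of MYC, its partner MAX, the antagonists MXD4 and MGA, the nucleolar MYC targets NCL and NPM1, ODC1 and CDKN2B in the 6 libraries. Bars are means with SD (n = 3) and points are single libraries. MYC fell from a mean of 417 to 271 CPM, NPM1 fell from 1616 to 697 CPM, and CDKN2B rose from 59.2 to 255 CPM.

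Genes long described as activated by MYC fell almost without exception. Of 34 such genes tested, 33 fell and 0 rose, and the median log2 fold change was -1.14, larger than that of MYC itself. NCL (nucleolin) went from 858, 875 and 837 CPM to 387, 375 and 398 CPM. NPM1 (nucleophosmin), which shuttles ribosomal particles out of the nucleolus, went from 1600.0, 1629 and 1619 CPM to 774, 646 and 669.6 CPM. In both genes the 2 groups were far apart. TERT, the catalytic subunit of telomerase, was counted 102, 97 and 59 times with vehicle and 0, 2 and 2 times with DOX, a ratio of 47.9 after library size is allowed for (95% interval 18.5 to 177, counting error only). DKC1, which holds the telomerase RNA and also modifies ribosomal RNA, fell from 233 ± 2.65 to 99.3 ± 1.20 CPM (SD, n = 3). The ATPase RUVBL1, a MYC cofactor, fell from 148, 136 and 126 CPM to 46.3, 53.4 and 50.5 CPM.

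The genes for building ribosomes fell almost as uniformly. All but 2 of the 64 tested genes for ribosome biogenesis and the nucleolus fell, 0 rose, and the median log2 fold change was -1.02. TCOF1 (treacle), which couples rDNA transcription to ribosomal RNA modification, went from 196, 185 and 180.2 CPM to 49.3, 56.6 and 58.0 CPM, a log2 fold change of -1.78 (SE 0.08, adjusted p = 5.39e-08, edgeR's quasi-likelihood test). IMP4, a component of the small-subunit processome, fell from 94.0 ± 4.92 to 33.2 ± 3.22 CPM (SD, n = 3), and NOLC1, a nucleolar scaffold, fell from 363 ± 3.24 to 132 ± 5.81 CPM. FBL (fibrillarin), the ribosomal RNA methyltransferase, fell by 1.33 on the log2 scale. Host genes of small nucleolar RNAs, whose introns carry the guides for that modification, followed, with 20 of 26 lower and 0 higher. SNHG4 fell the most of these, from 31.1, 35.5 and 35.0 CPM to 9.69, 6.76 and 7.12 CPM.

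The RefSeq promoters of the genes (250 bases before to 50 after the start, GRCh38.p14) were read for the E-box CACGTG, which is its own reverse complement. Such a promoter was given for 8668 of the genes tested, and 866 of them (9.99%) held the motif. The share was 10.6% among genes that fell, 10.4% among genes that rose and 8.94% among genes not called, so the motif did not set one direction apart from the other over all genes. Among genes with a large change it was lower, at 7.25% of 262 promoters for falls and 8.6% of 628 for rises. It was held by 11 of 20 promoters of MYC-activated genes (55%) and by 20 of 44 promoters of ribosome biogenesis genes (45.5%). In contrast, it was in 2 of 53 promoters of cytosolic ribosomal proteins (3.77%). The genes below are 4 members of the functional lists that held it, and capitals mark the motif. They fell by 1.47 to 1.74 on the log2 scale. They were picked by the size of their falls among genes with a mean count of at least 100. Some genes were left out beforehand, so the 4 are not a full ranking. NME1 is a nucleoside diphosphate kinase that shares 18.7% of its exon length with other annotated genes, MARS2 charges methionine tRNA in mitochondria, POLR1G is a subunit of RNA polymerase I, and MRTO4 is an assembly factor of the large ribosomal subunit. Their windows are chr17:51153309-51153608, chr2:197705119-197705418, chr19:45406394-45406693 and chr1:19251555-19251854, all on the plus strand. The motif began 34 bases after the annotated start in NME1, 11 before it in MARS2, 12 before it in POLR1G and 14 after it in MRTO4.
NME1: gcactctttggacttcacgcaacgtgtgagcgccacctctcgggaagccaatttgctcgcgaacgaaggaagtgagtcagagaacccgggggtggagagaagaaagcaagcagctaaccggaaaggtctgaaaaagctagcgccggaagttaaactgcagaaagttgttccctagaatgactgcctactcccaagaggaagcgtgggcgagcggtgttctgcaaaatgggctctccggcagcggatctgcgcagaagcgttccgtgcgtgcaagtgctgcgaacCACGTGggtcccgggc
MARS2: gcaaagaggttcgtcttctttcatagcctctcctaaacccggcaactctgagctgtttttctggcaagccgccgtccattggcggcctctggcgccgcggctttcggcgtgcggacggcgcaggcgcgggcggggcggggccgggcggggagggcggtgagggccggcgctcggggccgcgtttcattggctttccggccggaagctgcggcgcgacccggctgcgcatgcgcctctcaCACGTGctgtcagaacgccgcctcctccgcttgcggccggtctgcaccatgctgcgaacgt
POLR1G: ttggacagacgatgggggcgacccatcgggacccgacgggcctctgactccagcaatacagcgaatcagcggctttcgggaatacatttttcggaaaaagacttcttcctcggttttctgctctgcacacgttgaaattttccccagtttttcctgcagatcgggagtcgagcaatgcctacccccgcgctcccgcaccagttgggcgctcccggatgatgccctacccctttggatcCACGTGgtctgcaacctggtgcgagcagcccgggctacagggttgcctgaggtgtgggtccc
MRTO4: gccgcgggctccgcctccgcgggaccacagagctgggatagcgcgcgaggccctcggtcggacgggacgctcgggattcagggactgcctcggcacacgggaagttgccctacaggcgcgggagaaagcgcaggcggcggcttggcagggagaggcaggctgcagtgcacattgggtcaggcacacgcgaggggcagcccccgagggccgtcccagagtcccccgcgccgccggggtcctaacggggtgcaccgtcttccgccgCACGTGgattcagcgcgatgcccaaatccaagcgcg
NME1 fell from 93.6, 99.5 and 94.9 CPM to 25.2, 26.4 and 34.3 CPM, and MARS2 from 13.4, 14.2 and 13.1 CPM to 3.94, 3.86 and 5.39 CPM. POLR1G fell from 20.1, 19.95 and 20.8 CPM to 6.72, 6.30 and 8.19 CPM. In MRTO4 the vehicle libraries lay between 51.9 and 62.9 CPM and the DOX libraries between 18.2 and 22.9 CPM. None of the 4 genes had overlapping groups, and in the tet-MUC1shRNA line MARS2, POLR1G and MRTO4 rose with DOX by 0.22 to 0.42 on the log2 scale.

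RNA polymerases I and III, which transcribe ribosomal RNA, 5S RNA and tRNAs, had 26 of 34 tested subunits and factors lower and 1 higher. Among these, POLR3G had one of the largest falls of any gene. It was at 188, 193 and 207 CPM with vehicle and at 18.5, 13.8 and 15.2 CPM with DOX. The DOX libraries were all far below the vehicle libraries, 12.4-fold on average, with a log2 fold change of -3.63 (SE 0.11, adjusted p = 6.15e-09, edgeR's quasi-likelihood test). POLR3G is the RNA polymerase III subunit typical of stem and tumor cells, and POLR3GL is its counterpart in differentiated cells. POLR3GL was the one member that rose, by 0.73 on the log2 scale, with overlapping groups and 21.1% of its exon length shared with other genes. Per kilobase of exon, the mean levels were 48.7 CPM for POLR3G and 2.22 CPM for POLR3GL with vehicle, and 3.94 and 3.68 CPM with DOX. POLR3K, a small core subunit of the same enzyme, fell from 13.3 ± 0.744 to 4.39 ± 0.812 CPM (SD, n = 3).

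Genes of translation itself fell in most cases but by less. Among 78 cytosolic ribosomal proteins, 67 fell and 1 rose, with a median log2 fold change of -0.43. RPL10, the most abundant, fell from 2115, 1969.7 and 1936 CPM to 1441, 1795 and 1664 CPM, and RPSA fell from 747, 713 and 660.3 CPM to 333, 382 and 368 CPM. Of 41 initiation and elongation factors, 35 fell, and EEF1A1 was the most abundant at 7983 ± 317 against 7036 ± 267 CPM (SD, n = 3). EIF4EBP1, a repressor of cap-dependent initiation, fell by 1.12 on the log2 scale and EIF4EBP2, its relative, rose by 0.91. Aminoacyl-tRNA synthetases had 29 of 38 members lower and 4 higher, the latter including the tryptophan enzyme WARS1, which is also induced by interferon (0.44).

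The mitochondrial counterpart of this machinery fell further. None of 77 mitochondrial ribosomal proteins rose, 64 fell, and the median log2 fold change was -0.62. MRPS2, a small-subunit protein, went from 48.4, 40.1 and 36.7 CPM to 13.1, 17.1 and 15.3 CPM. Genes for protein import into mitochondria had 25 of 30 members lower and 0 higher, with TOMM34, a co-chaperone of precursor proteins, at 71.0 ± 4.94 against 27.8 ± 5.12 CPM (SD, n = 3). Chaperones were low as well, with 23 of 28 lower and 3 higher. HSPD1, the mitochondrial chaperonin HSP60, fell from 786, 805 and 816 CPM to 309, 251 and 263 CPM, and TRAP1, the mitochondrial HSP90, fell by 1.94 on the log2 scale. The small heat shock protein HSPB1 was one of the 3 that rose, from 252 ± 27.8 to 439 ± 112 CPM.

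Most metabolic genes that supply growing cells with nucleotides and polyamines fell. Of 30 genes for nucleotide synthesis, 24 fell and 4 rose, with a median log2 fold change of -0.91. PFAS, an enzyme of de novo purine synthesis, went from 145, 133 and 126 CPM to 32.4, 41.6 and 39.2 CPM. PRPS1, which makes the ribose phosphate precursor of nucleotides, went from 88.9, 85.1 and 78.4 CPM to 26.5, 27.9 and 29.8 CPM. In neither gene did the groups come near each other. Of 20 serine and folate one-carbon genes, 14 fell and 2 rose. GLDC, the glycine decarboxylase of mitochondria, fell from 169, 162 and 159 CPM to 37.5, 41.0 and 38.7 CPM, and the formyl-tetrahydrofolate synthetase MTHFD1L fell by 1.89 on the log2 scale. In polyamine metabolism, where 9 of 13 genes fell and 1 rose, ODC1, the first enzyme and a classical MYC target, fell from 309, 295 and 272 CPM to 116, 111 and 119 CPM. Spermidine synthase SRM fell from 261 ± 27.4 to 108 ± 27.0 CPM (SD, n = 3), and DOX library 1 was the lowest. The gene that rose was PAOX, a polyamine oxidase with few counts, from 0.0936, 0.0693 and 0.164 CPM to 0.503, 0.598 and 0.452 CPM.

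Of 22 genes for amino acid transport and glutamine metabolism, 7 rose and 11 fell. GLUL, glutamine synthetase, rose from 878, 847 and 869 CPM to 2714, 3073 and 3055 CPM, a log2 fold change of 1.77 (SE 0.07, adjusted p = 2.15e-08, edgeR's quasi-likelihood test). GOT2, the mitochondrial aspartate aminotransferase, fell from 249 ± 12.5 to 78.7 ± 2.49 CPM (SD, n = 3) and GLUD1, glutamate dehydrogenase, by 1.35 on the log2 scale. The transporters SLC1A5 and SLC7A5 fell by 0.34 and 0.49, and SLC1A4 and SLC6A9, which carry neutral amino acids and glycine, rose by 1.96 and 1.63.

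Proliferation genes formed the other large group of falls. Of 51 genes for DNA replication and S phase, 48 fell and 0 rose, with a median log2 fold change of -0.68. ORC1, a subunit of the origin recognition complex, fell from 56.4, 51.4 and 51.9 CPM to 15.6, 17.4 and 17.8 CPM, and MCM4, a subunit of the replicative helicase, fell from 687 ± 26.6 to 376 ± 30.3 CPM (SD, n = 3). Of 50 genes for mitosis and G2/M, 47 fell and 1 rose, with a median of -0.91. The spindle checkpoint kinase BUB1B went from 116, 119 and 114 CPM to 44.7, 37.1 and 40.2 CPM, and MYBL2, a transcription factor of late cell-cycle genes, fell by 1.45 on the log2 scale. The exception was CDC25B, a phosphatase that activates cyclin-dependent kinases at entry to mitosis. It rose from 171, 164 and 146 CPM to 489, 561 and 590.2 CPM, while its relative CDC25A fell from 43.98, 41.8 and 38.6 CPM to 15.5, 15.7 and 14.7 CPM. Histone genes, counted here from poly(A)-selected RNA, had 50 of 60 members lower and 3 higher, with a median of -1.60, and 46 of 58 also fell in the tet-MUC1shRNA line.

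Among G1 cyclins and CDK inhibitors, 6 of 16 genes rose and 6 fell. CDKN2B (p15), an inhibitor of CDK4 and CDK6 that MYC is known to repress with MIZ1, rose from 60.04, 57.1 and 60.4 CPM to 260.4, 261 and 243 CPM, a log2 fold change of 2.11 (SE 0.06, adjusted p = 6.15e-09, edgeR's quasi-likelihood test). CDKN1A (p21) rose from 64.8, 63.2 and 64.2 CPM to 93.6, 124 and 117 CPM, and CDKN1B (p27) from 41.6, 42.8 and 46.1 CPM to 83.3, 73.2 and 75.4 CPM. The groups were separate in all 3 inhibitors. CCND1 (cyclin D1) fell from 233 ± 7.19 to 121 ± 3.31 CPM (SD, n = 3), CDK6 from 488 ± 25.6 to 193 ± 17.2 CPM and SKP2, the ubiquitin ligase subunit that marks p27 for degradation, from 148 ± 1.77 to 73.4 ± 3.13 CPM. In all, 14 of 16 genes described as repressed by MYC rose and 2 fell. Target genes of p53 gave no such shift, with 9 of 27 higher and 7 lower. Among BCL2 family genes, 3 of 13 rose and 6 fell. The death-promoting BCL2L11 (BIM) and BMF rose by 1.06 and 1.89 on the log2 scale, and PMAIP1 (NOXA) and the survival gene MCL1 fell by 1.13 and 0.68.

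Interferon-stimulated genes rose together. Of 41 tested, 40 rose and 0 fell, 32 of them by more than 1.5 on the log2 scale, and the median log2 fold change was 3.11. A further 5 listed genes had too few counts to be tested, and a gene near absent with vehicle could pass the filter only through the DOX libraries. Of the 32 with a mean count of at least 100, 31 rose and 0 fell, with a median of 2.98, and the median over the list was as low as 2.69 under an alternative setting. Together the listed genes, with all 21 libraries scaled together, summed to 578 to 615 CPM with vehicle and to 1454 to 1648 CPM with DOX. The antiviral GTPase MX1 was at 0.187, 0.218 and 0.296 CPM with vehicle and at 16.8, 19.8 and 11.1 CPM with DOX, and OAS2, which makes the activator of RNase L, was at 0.107, 0.119 and 0.131 CPM and at 10.6, 11.1 and 7.57 CPM. The vehicle libraries thus held almost none of these mRNAs, and DOX library 3 was the lowest of the DOX libraries in both. IFIT1, which binds viral RNA lacking cap methylation, rose from 0.829, 0.713 and 0.985 CPM to 14.2, 12.6 and 11.9 CPM. IFITM3, a membrane protein that blocks viral entry and the most abundant member, rose from 356 ± 15.2 to 638 ± 86.4 CPM (SD, n = 3). The member not called was EIF2AK2, the RNA-activated kinase PKR, at 152 ± 6.02 against 169 ± 25.6 CPM.

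Transcripts for interferons themselves were barely seen. IFNB1 was counted 0 times over the vehicle libraries and 1 time over the DOX libraries, IFNL1 0 and 4 times, and IFNK and IFNL3 0 times in either group. Of 16 tested genes for interferon receptors, nucleic acid sensors and their adaptors, a group chosen after values were seen, 9 rose and 1 fell. Among the interferon-stimulated genes, STAT2, a transcription factor that interferon receptors activate, went from 15.8, 15.1 and 14.99 CPM to 48.5, 57.3 and 53.8 CPM. IRF7 rose by 1.37 and the receptor chain IFNAR1 by 0.58 on the log2 scale. Among sensors of nucleic acid, TLR3, the endosomal receptor for double-stranded RNA, rose from 0.174, 0.0792 and 0.23 CPM to 5.51, 3.79 and 4.06 CPM, and IFIH1 (MDA5), a cytosolic receptor for it, from 1.097, 1.43 and 1.31 CPM to 12.7, 11.2 and 9.61 CPM. MAVS, the adaptor downstream of IFIH1, rose by 0.93, whereas CGAS, the sensor of cytosolic DNA, fell by 0.97.

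The interferon-stimulated response element was searched as GAAA, any 2 bases and GAAA again, on both strands. It was in 245 of the 8668 promoters (2.83%), in 3.28% of those of genes that rose, in 2.37% of those of genes that fell and in 17 of 25 promoters of interferon-stimulated genes (68%). Of the promoters of genes with a large rise, 5.41% held it, or 3.28% without the listed interferon genes, and of those with a large fall 3.44%. The promoters of IFI6, a mitochondrial antiviral protein, and IFITM1, a relative of IFITM3, are shown since both genes were among those with the largest rises and held the motif more than once, which capitals mark. They are chr1:27672143-27672442 on the minus strand and chr11:313790-314089 on the plus strand. The motif began 156, 115 and 93 bases before the start of IFI6 and 40 and 6 bases before that of IFITM1.
IFI6: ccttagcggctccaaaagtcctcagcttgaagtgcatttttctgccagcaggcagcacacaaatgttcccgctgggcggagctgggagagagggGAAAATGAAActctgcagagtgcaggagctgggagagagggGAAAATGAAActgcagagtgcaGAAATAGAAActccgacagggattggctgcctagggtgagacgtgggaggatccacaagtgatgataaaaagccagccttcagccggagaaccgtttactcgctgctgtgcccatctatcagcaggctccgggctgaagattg
IFITM1: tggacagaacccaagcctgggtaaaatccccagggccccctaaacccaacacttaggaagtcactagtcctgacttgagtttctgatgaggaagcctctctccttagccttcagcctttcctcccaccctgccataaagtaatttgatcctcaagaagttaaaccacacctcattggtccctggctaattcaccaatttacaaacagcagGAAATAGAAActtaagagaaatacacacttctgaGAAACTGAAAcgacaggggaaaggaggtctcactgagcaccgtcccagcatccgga
IFI6 was at 0.321, 0.228 and 0.164 CPM with vehicle and at 7.58, 12.6 and 7.01 CPM with DOX. IFITM1 was at 0.789, 1.0001 and 0.263 CPM and at 12.1, 16.6 and 13.9 CPM. Both genes were low in every vehicle library, and 23.1% and 21.1% of their exon lengths overlap other annotated genes.

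Genes of MHC class I presentation rose alongside, 15 of 18, with 1 lower. B2M, the constant chain of MHC class I, rose from 177, 179 and 187 CPM to 324, 346 and 322 CPM, ERAP1, which trims peptides in the endoplasmic reticulum, from 55.8 ± 1.23 to 156 ± 7.66 CPM (SD, n = 3), and the immunoproteasome subunit PSMB9 by 2.11 on the log2 scale. CD274 (PD-L1) was the member that fell, from 2.23, 3.26 and 4.35 CPM to 1.09, 1.72 and 1.46 CPM. Complement genes, a group chosen after values were seen, rose in 11 of 15 tested cases and fell in 1. Over all genes tested, 30.3% rose and 28.1% fell. A mean count of at least 100 was reached by 11 of the 15, and a gene near absent with vehicle could pass the filter only through the DOX libraries. The proteases of the first complement component, C1R and C1S, rose from 10.9 ± 0.488 to 347 ± 39.6 CPM and from 11.3 ± 1.14 to 133 ± 6.13 CPM. Their inhibitor SERPING1 went from 0.348, 0.515 and 0.608 CPM to 9.57, 13.5 and 10.5 CPM. Of 20 cytokines and chemokines tested, 8 rose and 6 fell, a balance that was not stable, with 5 to 8 higher and 6 to 7 lower with each library left out. CXCL8 (interleukin-8) went from 128, 123 and 159 CPM to 14.8, 13.7 and 12.7 CPM and CXCL5 from 389, 437 and 435 CPM to 47.7, 33.3 and 32.3 CPM, while the cytokines IL15 and CSF1 rose by 2.52 and 1.57 on the log2 scale.

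**Figure D3:**
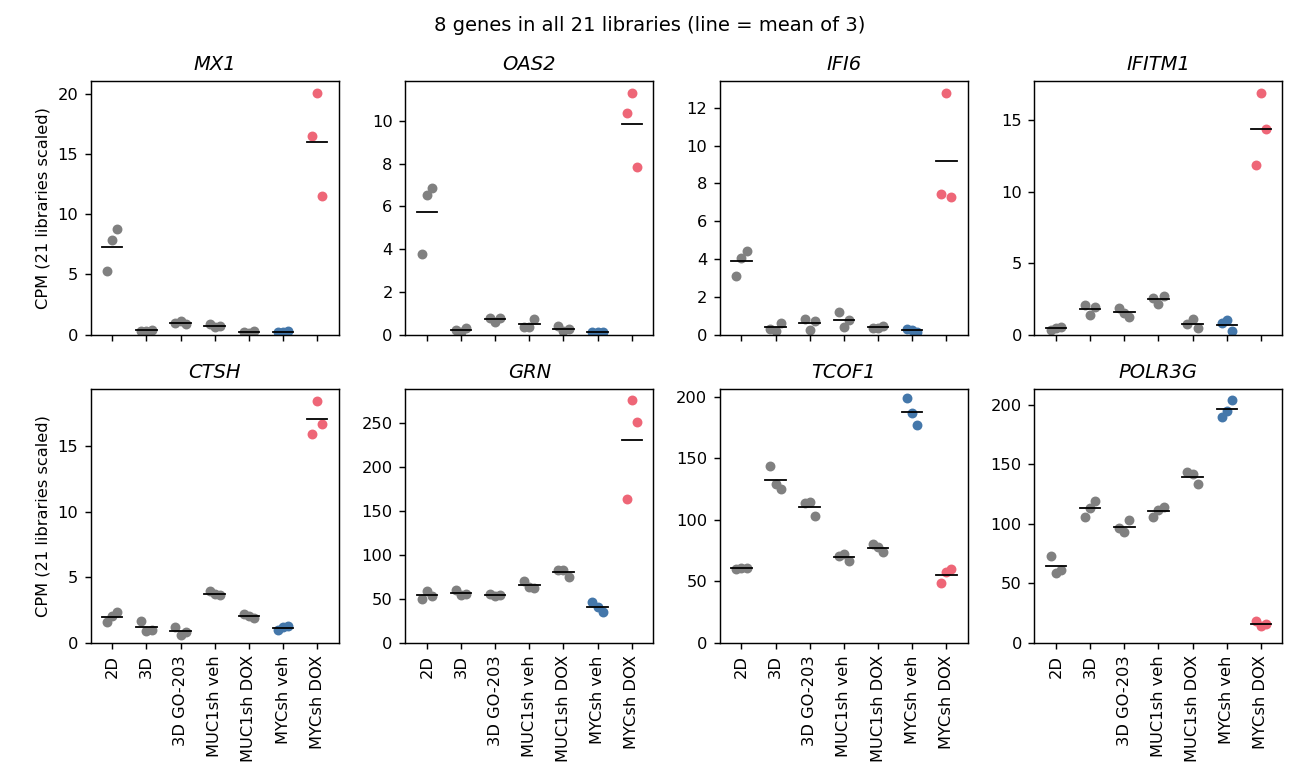
Levels (CPM scaled over 21 libraries, linear axes from 0) of 4 interferon-stimulated genes, 2 lysosomal genes, TCOF1 and POLR3G in the 7 conditions of the series, 1 point per library and a line at the mean of 3. DOX-treated tet-MYCshRNA mammospheres had the highest MX1 mean at 16.0 CPM, with 2D cells at 7.30 CPM and the other mammosphere groups at 0.233 to 0.986 CPM.

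Set beside the other 15 libraries of the series, DOX-treated tet-MYCshRNA mammospheres had the highest levels of MX1, OAS2 and IFI6, and 2D cells the next highest. MX1 was at 7.30 ± 1.78 CPM (SD, n = 3, scaled over 21 libraries) in 2D cells, 16.0 ± 4.32 CPM in DOX-treated tet-MYCshRNA mammospheres and below 1 CPM in each other mammosphere group. OAS2 was at 5.74 and 9.85 CPM in the first 2 of these and IFI6 at 3.88 and 9.17 CPM, whereas IFITM1 was lowest in 2D cells. Of the 629 well-counted genes with a large rise, which were chosen for groups that stand apart, the DOX libraries were above all other 15 libraries in 305 (48.5%, against 13% of the 12527 genes with a mean count of at least 100), and the vehicle libraries were below all of them in 164 (26.1%, against 6.01%). Among the 305 genes with a large fall, the DOX libraries were below the other 15 in 147 (48.2%, against 10%) and the vehicle libraries above them in 92 (30.2%, against 10.7%). POLR3G and TCOF1 are of this last kind, with vehicle means of 196 and 187 CPM on the 21-library scale and group means of 64.2 to 139.5 and 60.6 to 132 CPM in the other conditions outside the line. The tet-MYCshRNA libraries were the only ones at passage 8, so line and passage cannot be told apart in these shares.

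Lysosomal genes rose almost as consistently. Of 50 enzymes and membrane proteins of the lysosome, 44 rose and 3 fell, with a median log2 fold change of 1.05, and their summed level, scaled over all 21 libraries, went from 7496 to 8166 CPM with vehicle to 13486 to 15819 CPM with DOX. CTSH (cathepsin H) rose from 0.99, 1.16 and 1.28 CPM to 16.2, 18.2 and 16.1 CPM. GRN (progranulin), a lysosomal glycoprotein, rose from 45.6, 40.8 and 35.2 CPM to 166, 273 and 243 CPM, with DOX library 1 the lowest of the DOX libraries and still above every vehicle library. CTSB (cathepsin B), the most abundant member, rose from 3058, 2925 and 2799 CPM to 4149, 5016 and 4950.4 CPM. CTSC, an activator of granule proteases, fell by 0.41 on the log2 scale. Of the transcription factors that drive these genes, TFEB rose from 1.33 ± 0.115 to 2.46 ± 0.308 CPM (SD, n = 3) and TFE3 from 80.9 ± 5.83 to 111 ± 11.4 CPM. Autophagy genes rose in 18 of 28 cases and fell in 1, with the cargo receptor SQSTM1 (p62) at 214 ± 14.7 against 682 ± 96.6 CPM and GABARAPL1, which sits on autophagosome membranes, at 8.53 ± 0.856 against 41.1 ± 2.43 CPM.

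The E-box CACGTG, which TFEB and TFE3 also bind, was in 8 of 26 promoters of lysosomal genes (30.8%) against 9.99% of all. The same motif with GT before it and AC after it, a longer palindrome, was in 2 of the 26 (7.69%) and in 0.704% of all. The promoters of GAA, the lysosomal enzyme that breaks down glycogen, and CTSF (cathepsin F) are shown because each held CACGTG, in capitals, at a pair of places and both genes rose, in contrast to the E-box genes above. They lie at chr17:80101331-80101630 on the plus strand and chr11:66568557-66568856 on the minus strand. The motif began 76 and 31 bases before the start of GAA and 123 and 51 bases before that of CTSF.
GAA: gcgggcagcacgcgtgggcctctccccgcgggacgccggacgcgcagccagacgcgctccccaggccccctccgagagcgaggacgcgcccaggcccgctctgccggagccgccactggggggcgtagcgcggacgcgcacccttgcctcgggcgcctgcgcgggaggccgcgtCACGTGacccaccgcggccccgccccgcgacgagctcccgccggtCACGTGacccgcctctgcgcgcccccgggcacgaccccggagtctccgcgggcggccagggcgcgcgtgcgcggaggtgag
CTSF: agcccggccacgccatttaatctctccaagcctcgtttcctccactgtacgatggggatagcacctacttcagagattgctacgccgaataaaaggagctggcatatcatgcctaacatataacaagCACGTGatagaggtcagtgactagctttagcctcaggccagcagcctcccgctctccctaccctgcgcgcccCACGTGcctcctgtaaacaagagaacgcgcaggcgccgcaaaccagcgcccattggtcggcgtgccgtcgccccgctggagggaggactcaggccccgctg
GAA rose from 3.16, 2.58 and 3.28 CPM to 12.5, 22.4 and 20.6 CPM, and CTSF from 9.82, 9.03 and 9.92 CPM to 42.4, 48.9 and 44.8 CPM. Neither gene had overlapping groups.

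Stress programs were affected unequally. Genes of the ATF4 integrated stress response rose in 14 of 22 cases and fell in 4, with NUPR1, a stress-induced chromatin protein, at 0.883, 0.703 and 0.788 CPM against 5.03, 6.20 and 6.56 CPM. The summed level of the genes listed for this response did not rise. Scaled over all 21 libraries, it was 1745 to 1942 CPM with vehicle and 1653 to 1911 CPM with DOX. DDIT3 (CHOP), the pro-apoptotic factor of this response, rose from 4.29 ± 0.397 to 7.95 ± 1.06 CPM (SD, n = 3). NRF2 target genes rose in 11 of 22 cases and fell in 3. The quinone reductase NQO1 went from 318, 306 and 283 CPM to 964, 843 and 931 CPM, HMOX1 (heme oxygenase) from 61.5, 60.3 and 53.9 CPM to 160.1, 195 and 181 CPM, and the cystine carrier SLC7A11 rose by 1.60 on the log2 scale. Thioredoxin TXN and peroxiredoxin PRDX1, also NRF2 targets, fell by 0.44 and 0.46. Of 11 tested genes for iron uptake and storage, 7 rose and 2 fell. The ferritin chains FTL and FTH1 rose, from 2184 ± 155 to 5734 ± 844 CPM and from 288 ± 29.4 to 858 ± 279 CPM. The transferrin receptor TFRC fell from 165 ± 2.75 to 111 ± 12.4 CPM. Chaperones of the endoplasmic reticulum gave no single direction, at 13 of 26 higher and 8 lower.

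Lipid genes were split as well. Fatty acid synthesis and desaturation genes rose in 10 of 19 cases and fell in 6, with the stearoyl-CoA desaturase SCD at 5742 ± 109.6 against 11439 ± 602 CPM (SD, n = 3). Cholesterol synthesis and uptake had 14 of 28 genes lower and 6 higher, with HMGCS1, the first committed enzyme, at 399 ± 21.4 against 178 ± 15.2 CPM. With each library left out, 13 to 16 of these genes were lower and 3 to 8 higher. Of 27 genes for fatty acid oxidation and its regulation, 12 rose and 8 fell, with a median log2 fold change of 0.08. PDK4, the kinase that shuts pyruvate out of the citric acid cycle, rose from 132, 131 and 139 CPM to 1647, 1233 and 1395 CPM, and PPARGC1A (PGC-1alpha), a coactivator of mitochondrial genes, from 0.187, 0.0594 and 0.0985 CPM to 5.61, 5.98 and 5.90 CPM.

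Collagens had 15 of 27 genes higher and 5 lower, with a median log2 fold change of 1.04. COL3A1, the chain of type III collagen, rose from 11.2, 10.9 and 10.5 CPM to 218, 214 and 211 CPM, a log2 fold change of 4.30 (SE 0.07, adjusted p = 3.71e-10, edgeR's quasi-likelihood test). COL1A2 rose from 585, 582 and 555 CPM to 1702, 1858 and 1915 CPM. COL16A1, a minor fibril-associated collagen, fell by 1.81 on the log2 scale. Integrins and laminins had 12 of 25 genes higher and 8 lower. Of the laminin beta chains, LAMB2 rose from 73.6, 70.4 and 68.3 CPM to 265, 381 and 326 CPM, and LAMB1 fell from 199, 199 and 198 CPM to 44.7, 52.5 and 49.1 CPM. FN1 (fibronectin), already among the most abundant mRNAs, rose from 5204 ± 122 to 12359 ± 816 CPM (SD, n = 3). Matrix metalloproteinases and their inhibitors had 12 of 21 genes higher and 8 lower, TIMP2 rising from 29.6 ± 1.48 to 152 ± 5.99 CPM and the collagenase MMP1 from 27.3 ± 0.965 to 83.1 ± 1.44 CPM.

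Mesenchymal and stem cell markers did not fall as a group. Of 20 genes of epithelial-mesenchymal transition, 12 rose and 3 fell. CDH11, a mesenchymal cadherin, rose from 3.13, 2.96 and 3.28 CPM to 71.1, 65.0 and 68.6 CPM, and CLDN7, an epithelial claudin, fell from 3.85, 4.54 and 5.19 CPM to 1.17, 1.11 and 1.11 CPM. Of 13 stem cell markers and pluripotency factors tested, 10 rose and 2 fell. KLF4 went from 23.6, 23.4 and 22.6 CPM to 87.8, 92.2 and 89.4 CPM, the aldehyde dehydrogenase ALDH1A3 from 9.99 ± 1.39 to 29.5 ± 2.49 CPM (SD, n = 3) and CD44 from 796 ± 12.8 to 972 ± 18.9 CPM. ITGA6, the laminin-binding integrin chain used to sort mammary stem cells, fell from 83.8 ± 1.80 to 40.2 ± 1.73 CPM.

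In signaling pathways, 4 of 17 NOTCH genes rose and 8 fell, 16 of 28 TGF-beta and BMP genes rose and 6 fell, and 14 of 30 WNT genes rose and 8 fell. JAG1, a NOTCH ligand, rose from 7.33, 6.52 and 7.08 CPM to 59.2, 59.4 and 62.3 CPM, and the receptor NOTCH3 from 2.96, 2.96 and 3.74 CPM to 19.2, 28.0 and 22.9 CPM. NOTCH1 fell from 21.5 ± 0.789 to 7.60 ± 1.21 CPM (SD, n = 3), and the NOTCH target NRARP fell from 2.76, 2.12 and 2.73 CPM to 0.281, 0.154 and 0.374 CPM. TGFBI, a matrix protein induced by TGF-beta, rose from 18.6 ± 0.467 to 274 ± 29.3 CPM (SD, n = 3) and the ligand TGFB2 from 3.55 ± 0.352 to 17.8 ± 1.30 CPM. In the WNT family, WNT5A rose from 54.1 ± 0.925 to 174 ± 1.63 CPM and the secreted antagonist SFRP1 fell from 77.5 ± 3.35 to 15.1 ± 1.66 CPM. IGF binding proteins and receptors, also chosen after values were seen, had 9 of 11 genes higher and 0 lower, against 30.3% and 28.1% of all genes. IGFBP5 rose from 3.36, 3.63 and 5.03 CPM to 71.9, 98.7 and 97.4 CPM, and IGF2R, which carries enzymes to the lysosome and clears IGF2, from 212 ± 3.68 to 527 ± 26.4 CPM. MUC1 was at 66.8, 67.5 and 73.8 CPM with vehicle and 139, 193 and 165 CPM with DOX.

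Polycomb genes and genes of DNA methylation had no common direction. Of 14 DNA methyltransferase and TET genes tested, 5 rose and 7 fell. Polycomb genes rose in 9 of 28 cases and fell in 10, near the shares over all genes. The methyltransferase EZH2 fell from 93.2 ± 2.39 to 59.8 ± 3.72 CPM (SD, n = 3), and CBX7, a Polycomb subunit of resting cells, rose by 1.14 on the log2 scale. DNMT1, which copies DNA methylation at replication, fell from 301 ± 12.7 to 191 ± 14.5 CPM along with its partner UHRF1 (-1.04 on the log2 scale), and TET1, which starts the removal of that mark, rose from 1.81, 2.60 and 3.02 CPM to 8.47, 6.51 and 6.29 CPM. Zinc finger genes of the ZNF family rose more often than genes at large, at 287 of 470, with 50 lower. Counting only symbols made of ZNF and a number, which leaves out some of the 470, 172 of 228 on chromosome 19, where most KRAB zinc finger clusters lie, rose (75.4%) and 12 fell, with a median log2 fold change of 0.69. Elsewhere 105 of 217 rose (48.4%), and of the other protein-coding genes of chromosome 19, 34.9% rose. The changes were mostly small, since 30 ZNF genes rose by more than 1.5 on the log2 scale. Among ZNF genes with a mean count of at least 100, ZNF608 rose the most, from 1.20, 1.30 and 1.25 CPM to 14.9, 16.9 and 15.4 CPM, and ZNF556 fell from 14.3, 14.7 and 14.8 CPM to 3.26, 2.82 and 3.30 CPM.

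Protocadherins, adhesion proteins best known for giving neurons their surface identity, had too few counts in 26 of 72 listed genes to be tested, and a gene near absent with vehicle could pass the filter only through the DOX libraries, so the 43 called higher of the other 46 are a description. Only 17 had a mean count of at least 100 over the 6 libraries, of which 16 rose and 1 fell, with a median log2 fold change of 2.34. Of the clusters on chromosome 5, the alpha, beta and gamma genes had 5 of 15, 13 of 17 and 18 of 22 members tested. Alpha and gamma genes share constant exons, so the split of their counts is uncertain, whereas beta genes are single-exon. PCDHB9 rose from 0.375, 0.366 and 0.394 CPM to 3.38, 3.18 and 4.16 CPM. Outside the clusters, PCDH1 rose from 6.54, 5.72 and 7.28 CPM to 54.1, 69.2 and 67.0 CPM and PCDH15 fell by 1.59 on the log2 scale.

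The 3 DOX libraries lay wholly above or wholly below the 3 vehicle libraries in 59.7% of genes, and the leading genes were taken from these. The single genes with the largest rises included several that were close to absent with vehicle. CNTNAP2, a neurexin-like adhesion protein, was counted 0, 2 and 2 times with vehicle and 200, 318 and 330 times with DOX, a ratio of 285 (95% interval 111 to 1050, counting error only). NTRK3, the neurotrophin-3 receptor, rose from 0.0803, 0.099 and 0.148 CPM to 10.4, 9.87 and 11.4 CPM, and CADM1, a cell adhesion protein first described as a tumor suppressor, from 0.455, 0.376 and 0.394 CPM to 36.6, 31.2 and 34.3 CPM. In each of these genes, the lowest DOX library was far above the highest vehicle library. MATN2, a matrix adaptor protein, rose from 4.45, 3.56 and 4.68 CPM to 177, 183 and 181 CPM, and the matrix proteins MGP and CHI3L1 rose by 5.95 and 5.52 on the log2 scale. The interferon genes SAMD9L, OAS2, MX1 and IFI6, ANKRD35 and PPARGC1A completed the 12 largest rises.

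Among the 12 largest falls, SEMA7A, a membrane-anchored semaphorin, went from 9.98, 10.1 and 8.10 CPM to 0.402, 0.222 and 0.343 CPM. PDE4A, a cyclic AMP phosphodiesterase, fell from 31.9, 30.5 and 28.8 CPM to 0.925, 1.74 and 1.54 CPM, and TMC5, a transmembrane channel-like protein, from 19.7, 20.1 and 19.6 CPM to 1.01, 0.888 and 1.25 CPM. MYPN (myopalladin), a sarcomeric scaffold, fell by 3.54, the receptor tyrosine phosphatase PTPRZ1 by 3.87 and the neuropeptide gene GAL by 4.17 on the log2 scale. P2RX5, an ATP-gated channel, fell by 5.18, with 43.2% of its exon length shared with other genes. RNVU1-31, a variant U1 small nuclear RNA with near-identical copies, and the antisense transcript ELFN1-AS1 also belong to this set and are uncertain, since the handling of multiply mapping reads and the strand setting are not given in the sources used here. POLR3G, PTCHD4 and VSTM1 made up the rest.

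**Figure D4:**
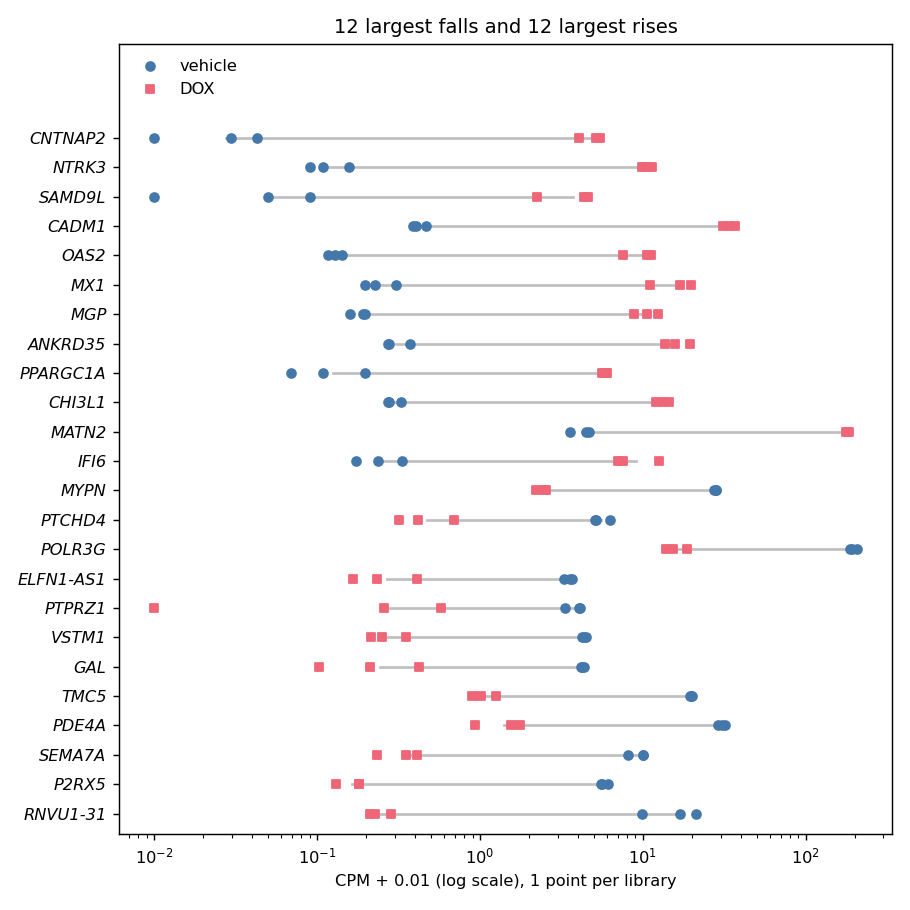
Levels (CPM + 0.01, log axis) in each of the 6 libraries of the 12 genes with the largest rises and the 12 with the largest falls, taken from called genes without overlap between DOX and vehicle libraries and with a mean count that reached 100. Each point is 1 library, and DOX and vehicle libraries are apart in all 24 genes.

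The tet-MUC1shRNA line was used to ask whether such changes also came with DOX and another hairpin. It is not an inert control, since with DOX 30.7% of its genes rose and 31.6% fell. A difference between the lines therefore does not separate an effect of DOX from effects of the 2 hairpins. The DOX effect differed between the 2 lines for 11420 of 21585 genes (52.9%), 5808 of them higher in the tet-MYCshRNA line (26.9%) and 5612 lower (26%), by edgeR's interaction test at an adjusted p below 0.1. The balance of directions rested on the scaling, since with library size alone the typical difference was lower by 0.20 on the log2 scale (median shift -0.204), 4602 genes were called higher and 7260 lower. The 2 lines also differed in passage, 8 against 6, which cannot be told apart from the hairpin here. Of the 35 interferon-stimulated genes with enough counts to be tested in both lines, 33 were higher by this test and 0 lower, and their median log2 fold change was -0.41 in the tet-MUC1shRNA line. Of 50 lysosomal genes, 40 were higher and 3 lower, against a median of -0.20 in that line. Of 64 ribosome biogenesis genes, 56 were lower, against a median of -0.00548 in that line, and 45 of 51 replication genes were lower, their median there being 0.24. Cytosolic ribosomal proteins were unlike these groups. In the tet-MUC1shRNA line, where 31.6% of all genes fell, 69 of 78 also fell, with a median of -0.49. Their interaction was higher in 23 and lower in 15 with TMM scaling but higher in 7 and lower in 27 with library size alone. Other groups also mostly fell in that line. Translation factors had 30 of 41 lower and 3 higher, small nucleolar RNA host genes 16 of 25 and 5, and mitosis genes 28 of 50 and 12. Among single genes, SMS (spermine synthase) fell by 1.24 in the tet-MYCshRNA line and by 1.22 in the tet-MUC1shRNA line on the log2 scale in the separate fits of each line, and the interaction did not pass the test (adjusted p = 0.991, edgeR's quasi-likelihood test on 12 libraries). Of the 24 leading genes, which were chosen for their change in the tet-MYCshRNA line, 10 were called with the opposite sign in the tet-MUC1shRNA line and 6 with the same sign.

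**Figure D5:**
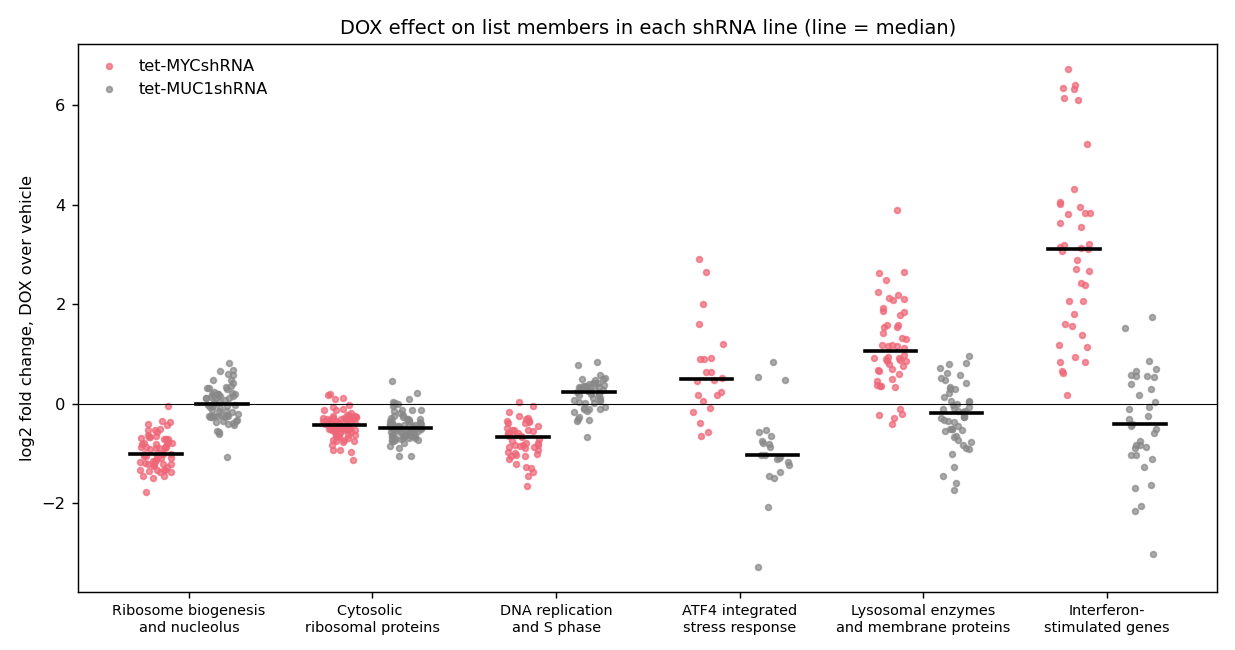
Log2 fold change with DOX in the tet-MYCshRNA line and in the tet-MUC1shRNA line for the tested members of 6 gene lists, 1 point per gene and a line at the median. Ribosome biogenesis and interferon-stimulated genes sit at medians of -1.02 and 3.11 in the first line and near 0 or below it in the second, while cytosolic ribosomal proteins are at -0.43 and -0.49.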

How the data were processed

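The authors aligned paired-end reads from poly(A)-selected, stranded libraries to GRCh38 with STAR and deposited the raw counts that featureCounts assigned to genes. The annotation release and strand setting are not given in the sources used here. Empty cells of the deposited table were read as a count of 0. Genes passing edgeR 4.0.16's filterByExpr were scaled by TMM and tested with its quasi-likelihood test (R 4.3.3, Benjamini-Hochberg over all genes tested), called at an adjusted p below 0.1, on 6 libraries, or 12 for the interaction. CPM were scaled over 6 libraries unless stated. Counts set the precision of each library, but the spread between cultures exceeded it. Genes were named for the 12 largest rises and 12 largest falls with a mean count of at least 100 and no overlap, and for the 3 largest of each list and its most abundant member. CTSF, EIF2AK2, IFIT1, IFITM1, IFNAR1, IGF2R, IRF7, PAOX, STAT2, TFE3, TFEB and the members of added groups were named after their values were seen, and the complement, IGF, interferon sensor and protocadherin groups and the response element were chosen likewise. The rule also named the MYC network and target lists, the largest changes of each family and 4 E-box genes. Members and lists were chosen with earlier results of these data known. Alternatives included DESeq2 1.42.0. The tests were checked on simulated data. Some genes are not reported here.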

Additional observations from a re-analysis of the deposited data

Results flagged for a closer look

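The DOX effect differed between the tet-MYCshRNA and tet-MUC1shRNA lines for 11420 genes by edgeR's interaction test at an adjusted p below 0.1, and 10 of the 24 leading genes were called in opposite directions in the 2 lines. The difference of the log2 fold changes, the tet-MYCshRNA line minus the tet-MUC1shRNA line, was 7.83 for MX1, 6.29 for IFI6 and 7.01 for MATN2, all of which rose in the first line and fell in the second. It was -9.81 for SEMA7A, -7.21 for PTPRZ1, -6.75 for TMC5, -5.48 for MYPN, -5.16 for VSTM1, -5.08 for PDE4A and -3.95 for POLR3G, all of which fell in the first line and rose in the second. SEMA7A rose by 4.95 on the log2 scale in the tet-MUC1shRNA line, about as much as it fell on MYC silencing. The lines differ in hairpin and in passage, which cannot be told apart.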

How the results depend on the processing

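The count of called genes stayed within 1.5 times the reported 11665 under every alternative run. It was 10036 to 12353 with each library left out, the highest without DOX library 1, and 11388 with DESeq2, which shared 10735 calls. Large changes numbered 2212 to 2393 (1496 to 1625 higher, 694 to 846 lower) with each library left out. They numbered 7514 (4111 higher, 3403 lower) when a fold change above 1.5 replaced a log2 fold change above 1.5, and 1250 (881 higher, 369 lower) with at least 10 counts in every library. Without a filter beyond 1 count, 1051 large falls were called. The MYC log2 fold change was -0.69 to -0.55 with each library left out. The interaction called 10743 to 12146 genes with each library left out and 10105 to 11862 under the other alternatives. Same-numbered vehicle and DOX libraries had correlations of -0.176, -0.00334 and -0.134 in their deviations, so the numbers did not pair the samples, and a fit with the replicate block called 10478 genes and 2127 large changes, lost the call of MAX and changed no other call among the genes named. EIF2AK2 passed the test in 1 fit over all libraries (log2 fold change 0.17) and without DOX library 2 (0.25). With library size alone, 50.1% of called genes rose, against 51.9%. Of 3406 recomputed list counts, medians and motif shares, 103 moved beyond the limits set, and the medians of some lists without a common direction changed sign.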
